A study of Danio rerio with 15 samples.

Results

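The 165 transcripts described here had fewer reads in the radial glia of zebrafish larvae without Notch3 than in those of wild-type larvae, and were followed in neural stem cells and progenitors of the adult telencephalon. Of the 30279 transcripts in the deposited tables, 17576 had an adjusted p in the larval comparison. The members were chosen from these by their larval difference: DESeq2 with the replicate number in the model, a Benjamini-Hochberg adjusted p under 0.05 and a lower level in notch3-/- larvae. This held for 198 transcripts (1.13% of those with an adjusted p). The 33 of them on chromosome 3 were set aside because of possible linkage to the mutated locus. Of the remaining 165, edgeR called 25 (15.2%) higher in adult quiescent radial glia than in activated cells and 0 lower. Over all 27848 transcripts tested in adults, 153 (0.549%) were called higher and 1 (0.00359%) lower. Among those that also had an adjusted p in larvae, 0.854% were called higher. Of 69 transcripts higher in notch3-/- larvae, also without chromosome 3, 7 (10.1%) were called higher in quiescent radial glia. Such calls were thus frequent in both larval lists, and the difference between the lists was not tested.

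Notch receptors are cut upon ligand binding, and their intracellular fragment enters the nucleus and activates transcription together with the DNA-binding protein RBPJ. In the adult vertebrate brain, neural stem cells are astroglial cells, called radial glia in the zebrafish, most of which do not divide at a given moment. Notch3 is known in the zebrafish pallium, the dorsal telencephalon, for holding radial glia in this quiescent state. The comparison asks where transcripts found lower in larvae without Notch3 stand between the quiescent and the dividing cells of the adult.

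The larval libraries came from eGFP-positive cells sorted from heads at 7 dpf (days post-fertilization), in 3 notch3fh332 homozygous (notch3-/-) and 3 notch3+/+ samples of 15 heads each. All larvae carried gfap:egfp, a transgene whose promoter marks radial glia across the whole head, and not only in the pallium. The adult libraries came from wild-type fish of 3 months carrying her4:drfp and mcm5:egfp, in 3 independent experiments with 20 pooled telencephali. Cells positive for RFP alone were taken as quiescent radial glia (qRGs, 3 libraries), cells positive for RFP and GFP as activated radial glia (aRGs), and cells positive for GFP alone as activated neural progenitors (aNPs). The remaining 6 adult columns are named activatedNPC or proliferative, and from these names aRGs cannot be told from aNPs with certainty. They were therefore pooled as a single activated group. The values are counts of reads per transcript, given below as CPM (the number expected in a library of 1000000 reads, with sizes corrected by edgeR's TMM method). The tables list Ensembl transcript identifiers, of which 0 could be paired with a gene name, so transcripts are given by identifier or position (Zv9 assembly). For the same reason, the level of notch3 in the mutant and the markers of radial glia, dividing cells and other cell types were not checked, and no member can be assigned a function. In such sorted bulk samples, fewer cells of a type and less RNA per cell cannot be told apart.

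Depth ranged over 17776468 to 37653792 reads per larval library and 19555038 to 66966289 reads per adult library. Of the 6 activated libraries, 3 stood apart from the other adult libraries: activatedNPC replicate 3 and proliferative replicates 1 and 3. Their TMM factors were 1.44, 1.97 and 1.64, against 0.682 to 0.921 in the other 6 adult libraries. They held reads of 29361 to 29424 transcripts, against 26487 to 28178 in the deeper libraries. Of the 27848 transcripts tested in adults, 7861 (28.2%) were higher in all 3 of these libraries than in all 6 others, as were 41 of the 165 members (24.8%). The main adult counts and medians are given below with and without these libraries.

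In larvae, the members' log2 fold changes, notch3-/- over notch3+/+, ranged from -4.80 to -0.46, with a median of -1.30. These values, and the agreement of the replicates on them, chose the members and are given as a description. The member just inside the threshold had an adjusted p of 0.0494 and a log2 fold change of -0.81. The transcript just outside had 0.052 and -0.87. All 165 were lower in notch3-/- than in the notch3+/+ library of the same number in each of the 3 pairs, with median log2 differences of -1.24, -1.35 and -1.04 in pairs 1, 2 and 3. The ranges of both genotypes did not overlap for 89 members. Over all transcripts with an adjusted p, the notch3-/- libraries lay below all notch3+/+ libraries for 738 (4.2%). Mean levels of the members spanned 0.16 to 1450 CPM in notch3-/- libraries (median 12.4) and 2.64 to 2021 CPM in notch3+/+ libraries (median 29.6). The members took up 0.802% to 1.19% of all reads in notch3-/- libraries, against 1.47% to 2.24% in notch3+/+ libraries.

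The members varied between replicates in ways that genotype does not account for. Among the 3 notch3+/+ libraries, replicate 2 had the highest level for 115 members, replicate 1 for 41 and replicate 3 for 9. Over the 23056 transcripts expressed in larvae, these shares were 33.7%, 33.8% and 32.5% for replicates 2, 1 and 3. Replicate 2 was also the highest of the notch3-/- libraries in the median over the members (log2 CPM of 3.98, against 3.47 in replicate 1 and 2.98 in replicate 3). Many members were thus higher in both libraries of the second pair. Without that pair, the larval rule kept 56 of the 165 members. Without the first pair it kept 72, and without pair 3, 90. In replicate 2 the number of transcripts with reads also differed between the genotypes, with 26461 in the notch3-/- and 24684 in the notch3+/+ library, whereas these numbers lay close together in pair 1 (24241 and 24513) and pair 3 (26494 and 26600). The part of this difference in the choice of members was not tested.

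The members were spread over 24 chromosomes, all but the one set aside, with 2 to 14 on each. The largest numbers were on chromosomes 15 and 16, with 14 of 1104 and 14 of 1184 transcripts tested in adults. The members' medians of length, exon number and span lay close to those of the transcripts tested in adults, but single-exon transcripts made up a smaller share. Their median exonic length was 1719 bp, against 1671 bp in all tested transcripts, and their median number of exons was 6 in both. The genomic span had a median of 10966 bp in the members and of 11556 bp in all tested transcripts. Single-exon transcripts made up 3 of the members (1.82%), against 6.28% of all tested transcripts. The tested set includes transcripts without an adjusted p in larvae, which could not become members. Exons of 12 members (7.27%) overlapped those of another listed transcript, against 8.17% of all tested transcripts. Reads were counted without strand, so reads on those exons could not be assigned to either partner. In 9 cases a member lay within 100 kb of the next member on the chromosome, which involved 18 members. The frequency of such neighbours over all tested transcripts was not counted. Of the 9 pairs of members, the closest lay 3550 bp apart on chromosome 15 (555850 to 567539 and 571089 to 575029), with larval log2 fold changes of -1.80 and -1.73.

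In adults, all 165 members passed edgeR's filter on low counts, and 154 had reads in all 9 libraries. edgeR's quasi-likelihood test called 25 of the 165 members (15.2%) higher in qRGs than in the 6 activated libraries at an adjusted p under 0.05. Over all 27848 tested transcripts, 153 (0.549%) were called higher. The members made up 16.3% of these 153 transcripts, and 9 of the 20 with the largest log2 fold changes. No member was called lower, as was 1 transcript of all those tested (0.00359%). At an unadjusted p under 0.05, 42 members were higher and 12 lower in qRGs, against 1420 (5.1%) and 988 (3.55%) of all tested transcripts. DESeq2 called 29 members higher and 1 lower, with 1.7% and 0.551% of its 18871 transcripts called in these directions. The adult comparison made few calls, so that a member without a call is not shown to be equal between the cell states.

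The calls came from a subset of the members. Their median adult log2 fold change, qRG over activated, was 0.05 (quartiles -0.98 and 1.19), against -0.27 over all tested transcripts (quartiles -0.81 and 0.22). A log2 fold change above 0 was found in 85 members and one below 0 in 80. Over all 27848 tested transcripts, 9961 lay above 0 and 17887 below 0. All 3 qRG libraries lay above all 6 activated libraries for 38 members (23%), against 3.33% of all tested transcripts. They lay below all 6 for 2 members (1.21%), against 1.89%.

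Members were more abundant in adults than the average transcript, with a median mean log2 CPM of 3.29 against 2.32 over all tested transcripts. Only transcripts with an adjusted p in larvae could become members, and the part of this in the difference was not tested. Calls were also more frequent among abundant transcripts, and the counts were therefore read within terciles of adult level. This level is a mean over the qRG and the activated libraries, so a high level in qRGs itself moves a transcript up. The rise of calls and medians from tercile to tercile is therefore partly built in. In the lowest tercile (log2 CPM up to 1.08), 0 of 36 members were called higher by edgeR, against 0.0108% of all transcripts in that tercile, and the single call there leaves no room for a comparison. In the middle tercile, 6 of 58 members (10.3%) were called, against 0.593%. In the highest tercile (log2 CPM from 3.86), 19 of 71 members (26.8%) were called, against 1.04%. The median log2 fold change of the members was -0.89, -0.38 and 0.96 from the lowest to the highest tercile, and that of all transcripts -0.72, -0.30 and 0.10. Without the 3 libraries that stood apart, 0 of 30, 10 of 58 (17.2%) and 20 of 71 members (28.2%) were called in the same terciles, against 0.224%, 1.53% and 1.24% of all transcripts. The medians were then 1.07, 0.76 and 0.76 for the members and 0.73, 0.22 and -0.31 for all transcripts, so that the negative medians of the lowest and middle terciles turned positive. Among the 17569 transcripts that also had an adjusted p in larvae, 150 (0.854%) were called higher in qRGs.

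**Figure D1:**
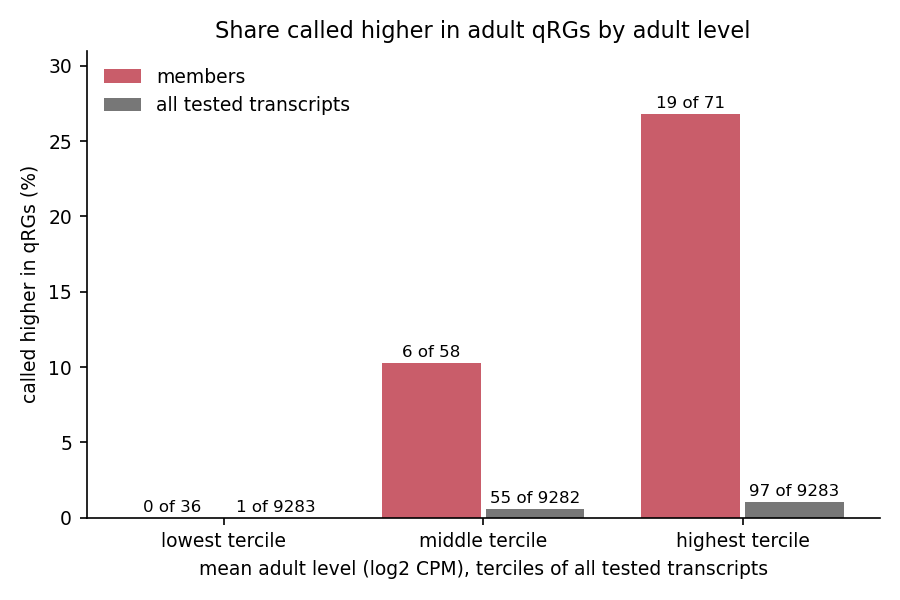
Share of transcripts called higher in adult qRGs (percent, from 0) in terciles of mean adult level (log2 CPM), for the members (red) and all tested transcripts (grey), with the numbers called and tested above each bar. In the highest tercile, 19 of 71 members were called, against 97 of 9283 transcripts.

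Passing the adult test required a clear difference, so the values of the 25 called members are given as a description. Over all 153 called transcripts, the log2 fold changes ranged from 1.71 to 6.37. Their median was 2.73, against 3.97 for the 25 members. Their fold changes ranged from 4.03 to 58.2 with a median of 15.7 (log2 fold changes of 2.01 to 5.86, edgeR adjusted p of 2.79e-05 to 0.0283). In qRGs, 19 were at least 8-fold higher, 12 at least 16-fold and 5 at least 32-fold. For all 25, the lowest qRG library exceeded the highest of the 6 activated libraries, by 2.49-fold to 29.9-fold (median 5.7-fold). Within the qRG libraries, the highest and lowest values of a member differed 1.51-fold in the median and at most 2.92-fold. Single libraries ranged from 11.7 to 2294 CPM in qRGs, against 0.0985 to 96.5 CPM in activated cells. The 25 transcripts together took up 0.581% to 0.667% of all reads in qRG libraries, against 0.02% to 0.0688% in activated libraries. Of the 25, 3 had exons overlapping another transcript. Their median length was 1488 bp, against 1855 bp for the 140 other members.

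**Figure D2:**
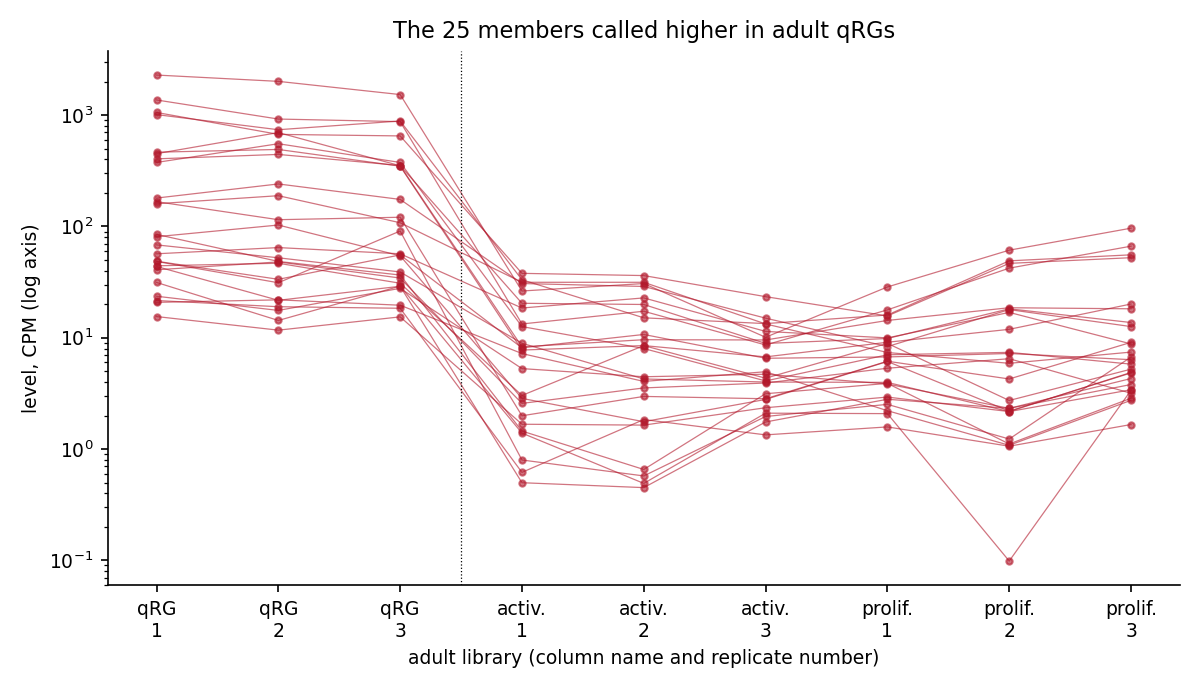
Levels (CPM, log axis) of the 25 members called higher in qRGs in the 9 adult libraries, named by column and replicate number, with qRGs left of the dotted line. Each line is a transcript, and each has its 3 qRG values above its 6 activated values.

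The largest adult difference was that of ENSDART00000001253, a transcript of 990 bp in 4 exons on the minus strand of chromosome 10 (13199890 to 13203157). It had 376, 554 and 376 CPM in qRG replicates 1, 2 and 3. In the activated libraries it had 12.6, 8 and 4.09 CPM in the activatedNPC columns, and 7.03, 7.39 and 5.79 CPM in the proliferative columns. All qRG libraries were far above all others (log2 fold change 5.86 ± 0.495 (SE), adjusted p = 2.79e-05 by edgeR). In larvae the same transcript was near the threshold of the rule, with 22, 17.7 and 15.3 CPM in notch3-/- and 40.3, 22.3 and 39.1 CPM in notch3+/+ libraries, an adjusted p of 0.0471 by DESeq2 and a log2 fold change of -0.86. The larval genotypes differed by little in pair 2, where the notch3+/+ value lay just above the highest notch3-/- value.

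The second was ENSDART00000051533, of 1717 bp in 8 exons on the minus strand of chromosome 5 (24937056 to 24949033). Per kilobase of transcript it was the most abundant of the called members in qRGs, with 1134 CPM per kb against 24.6 CPM per kb in activated cells. It had 2294, 2013 and 1532 CPM in qRGs. It had 26.3, 30.7 and 10.1 CPM in the activatedNPC columns, and 28.6, 61.2 and 96.5 CPM in the proliferative columns. The groups did not overlap (log2 fold change 5.53 ± 0.699 (SE), adjusted p = 0.000853 by edgeR). In larvae it had 196, 83.9 and 248 CPM in notch3-/- and 1081, 750 and 723 CPM in notch3+/+ libraries, and its log2 fold change was -2.40.

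Of the 25 called members, 5 lay on chromosome 5, which holds 12 members in all and 1503 of the transcripts tested in adults. A pair of these called members were neighbours 22166 bp apart, the only neighbouring members within 100 kb that were both called. The first (67609771 to 67611364, 2 exons) had 84.9, 48.5 and 36.6 CPM in qRGs, against 0.655 to 3.89 CPM in activated cells, a log2 fold change of 4.70 (adjusted p = 0.00034 by edgeR). Its exons overlap those of another transcript. The second (67633530 to 67667565, 11 exons) had 160, 189 and 108 CPM in qRGs. It had 31.5, 31.5 and 13.3 CPM in the activatedNPC columns, and 7.37, 5.89 and 7.43 CPM in the proliferative columns, a log2 fold change of 3.24 (adjusted p = 0.0135). All its proliferative values lay below all its activatedNPC values, an order seen in 19 of the 165 members and 6.22% of all tested transcripts. The opposite order was seen in 27 of the 165 members and 6.65% of all tested transcripts. Among the 25 called members, 3 had the first order and 5 the opposite one. The larval log2 fold changes of both neighbours were -0.81 and -0.76, at the small end of the members.

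A further 5 called members were at least 32-fold higher in qRGs or exceeded 600 CPM in every qRG library, and are given here by position, by a limit set after their values had been seen. A transcript on chromosome 2 (44320983 to 44344410) had 1370, 923 and 875 CPM in qRGs, against 8.61 to 66.5 CPM in activated cells. A transcript on chromosome 7 (40087926 to 40089040) had 1012, 740 and 887 CPM in qRGs, against 13.4 to 55.6 CPM. A transcript on chromosome 19 (22298344 to 22316769) had 1058, 672 and 651 CPM in qRGs, against 15.7 to 52.4 CPM. It also had the largest larval difference of the called members, with 128, 76.2 and 138 CPM in notch3-/- and 883, 589 and 573 CPM in notch3+/+ libraries. A transcript on chromosome 15 (41987581 to 42013228) had 465, 492 and 348 CPM in qRGs, against 6.73 to 20.1 CPM in activated cells. A transcript on chromosome 1 (19337371 to 19375082), whose exons overlap another transcript, had 451, 698 and 351 CPM in qRGs, against 8.29 to 18.6 CPM. The adult log2 fold changes of these transcripts were 5.26, 4.86, 4.49, 5.35 and 5.26 in the order given. At the other end, the called member with the smallest adult difference (chromosome 21, 11988072 to 11999037) had 56.8, 64.6 and 56.8 CPM in qRGs, against 8.8 to 22.8 CPM in activated cells (log2 fold change 2.01).

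The remaining 140 members did not pass the test in either direction. No member met the rule for naming transcripts that were lower in qRGs, and the following were picked after their values had been seen, as the most negative log2 fold changes at a mean log2 CPM of at least 1. ENSDART00000142400 (chromosome 16, 48063023 to 48070828) had 0.751, 0.551 and 0.0438 CPM in qRGs. It had 0.0199, 0.471 and 0.718 CPM in the activatedNPC columns, against 4.8, 4.38 and 20 CPM in the proliferative columns (log2 fold change, qRG over activated, -3.50 ± 1.5 (SE), adjusted p = 0.516 by edgeR). ENSDART00000156124 (chromosome 6, 49001677 to 49003685), whose exons overlap another transcript, had 8.35, 3.53 and 3.81 CPM in qRGs. It had 2.09, 1.78 and 4.07 CPM in the activatedNPC columns, against 50.8, 163 and 49.7 CPM in the proliferative columns (log2 fold change -3.11 ± 1.27 (SE), adjusted p = 0.477). Against the proliferative columns alone both passed edgeR's test as lower in qRGs, with log2 fold changes of -4.47 (adjusted p = 0.0128) and -4.08 (adjusted p = 0.00407). They also passed against the 3 libraries that stood apart alone (adjusted p = 0.0109 and 0.0131). Both were high only in the columns named proliferative, and the qRG and activatedNPC values overlapped. That order, with all proliferative columns above the other 6 libraries, was found in 14 members (8.48%), against 3.36% of all tested transcripts. All activatedNPC columns lay above the other 6 libraries in 2 members (1.21%), against 1.81%.

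**Figure D3:**
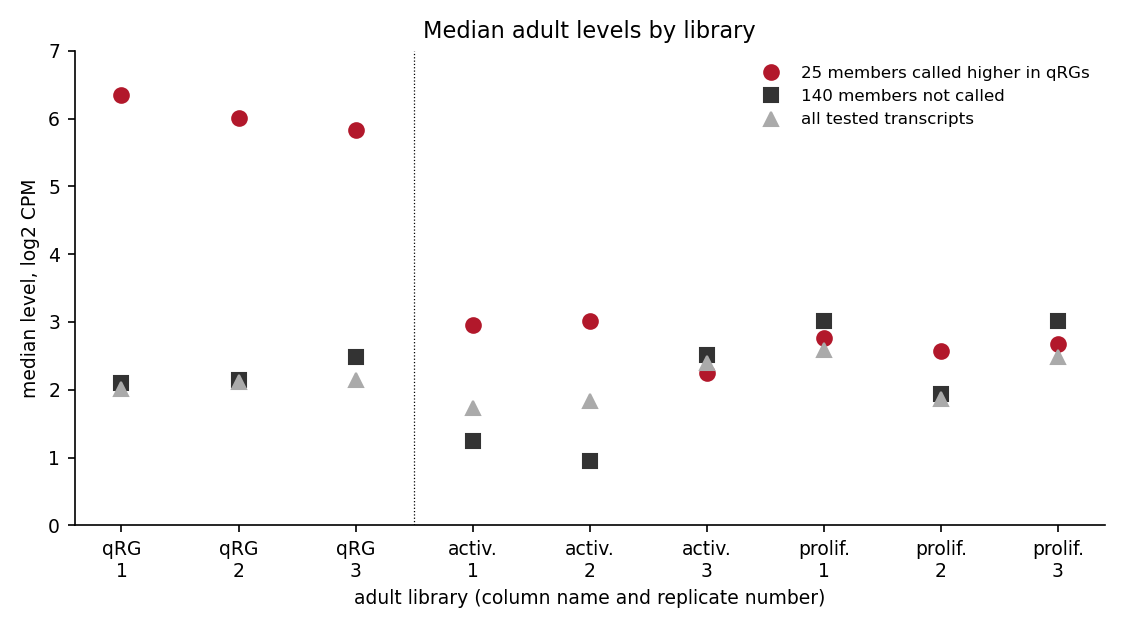
Median level (log2 CPM) in each adult library of the 25 members called higher in qRGs (red circles), the 140 other members (dark squares) and all tested transcripts (grey triangles), with qRGs left of the dotted line. The called members lie between 5.83 and 6.34 in qRGs and between 2.25 and 3.01 in activated libraries, and the other members follow the median of all transcripts more closely, up to 3.02 in proliferative replicate 1.

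Without the activated libraries that stood apart, 159 members were tested, and 30 were called higher and 2 lower in qRGs, with 1.08% and 1.3% of all transcripts called in these directions. Of the 25 members, 23 were called again. The members' median log2 fold change was then 0.82, against 0.08 over all transcripts. With these 3 libraries as the only activated ones, 54 members were called higher, among them all 25, and 43 lower. The background rose as well, to 18.9% and 22.6% of all transcripts, and the members' median was -0.03. Set against the columns named activatedNPC alone, qRGs were higher in 42 and lower in 4 of 163 members, with 3.42% and 1.77% of all transcripts called. Against the columns named proliferative alone, they were higher in 29 and lower in 6 of 164 members, with 1.59% and 1.13% called. All 25 members were called higher against either set of columns. Each set holds libraries that stood apart. Deviations from the mean of each column name were compared across the tested transcripts. Those of activatedNPC replicate 3 went with those of proliferative replicates 1 and 3 (r = 0.80 and 0.71). Those of proliferative replicate 2 went with activatedNPC replicates 1 and 2 (r = 0.52 and 0.63) and against activatedNPC replicate 3 (r = -0.81). The counts by column name are therefore not assigned to aRGs or aNPs.

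The called and the other members differed in which larval replicates were high. These are the larval counts from which the members were chosen, and the values are given as a description. Of the 25 called members, 4 were higher in notch3+/+ replicate 2 than in replicate 1, with a median log2 difference of -0.58. Of the other 140, 113 were higher in replicate 2, with a median log2 difference of 1.06. The notch3-/- libraries showed the same order, with 3 of 25 and 112 of 140 higher in replicate 2 than in replicate 1. The share of all transcripts with this order is not given here. Over all transcripts expressed in larvae, notch3+/+ replicate 2 was the highest of its genotype for 33.7% and replicate 1 for 33.8%. The difference between genotypes within pairs was larger in the called members in pairs 1 and 3, and close to that of the others in pair 2. It was -1.53, -1.32 and -1.23 in pairs 1, 2 and 3 in the median of the called members, and -1.22, -1.36 and -1.04 in the others.

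**Figure D4:**
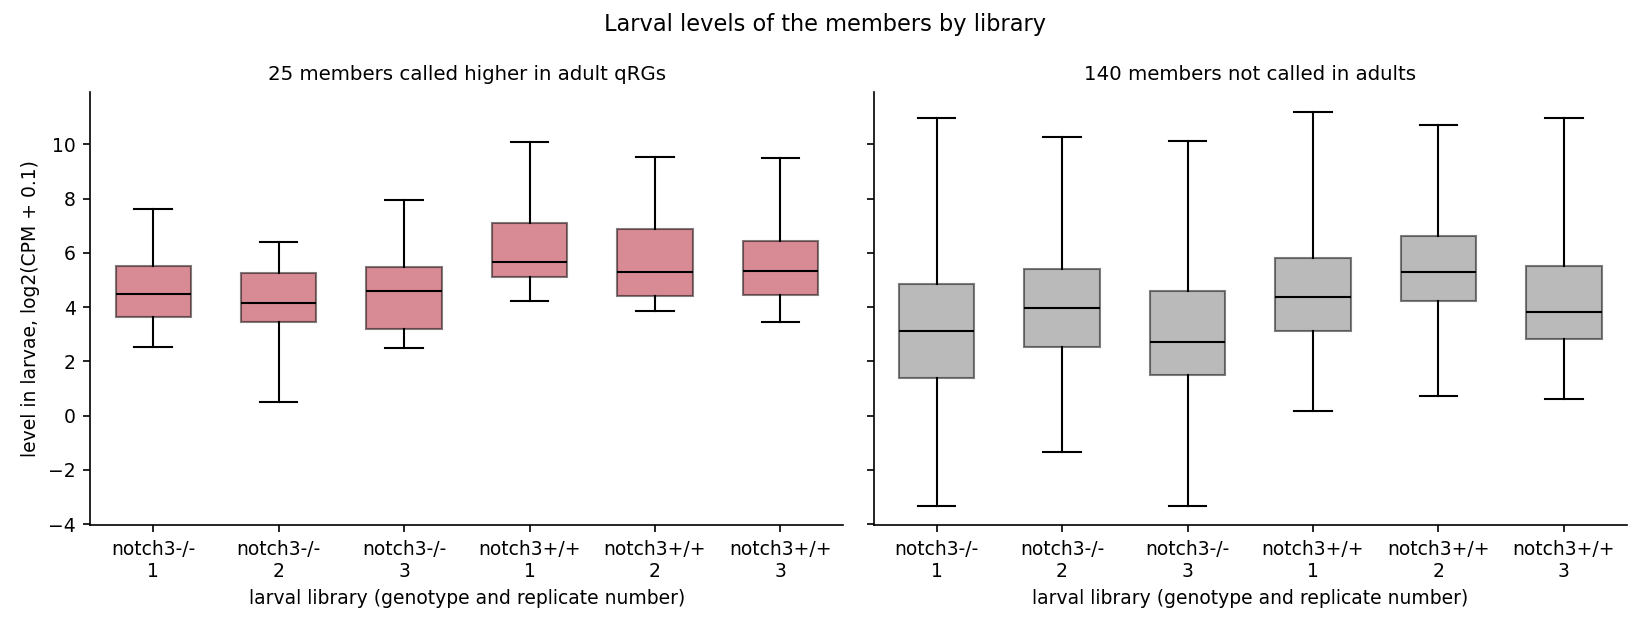
Larval levels, log2(CPM + 0.1), of the 25 members called higher in adult qRGs (left panel) and the 140 other members (right panel) in the 3 notch3-/- and the 3 notch3+/+ libraries. Boxes show quartiles and medians and whiskers the full range. In both genotypes the median of the other members is highest in replicate 2, and that of the called members is not.

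Seen from the larval side, 41 members were highest in notch3+/+ replicate 1, and 20 of these (48.8%) were called higher in adult qRGs, with a median adult log2 fold change of 2.48. Of the 115 members highest in replicate 2, 4 (3.48%) were called, with a median of -0.28, and of the 9 highest in replicate 3, 1 was called. Without the 3 adult libraries that stood apart, 22 of the 41 and 7 of 111 were called, and the medians were 2.54 and 0.40, so that the second turned positive. The members highest in replicate 1 were also more abundant in adults (median log2 CPM of 4.36, against 2.64 for those highest in replicate 2). This adult level includes the qRG libraries, and the part of abundance in the shares called was not tested. Over all transcripts tested in adults and expressed in larvae, the shares called were 1.1%, 0.284% and 0.602% for those highest in replicates 1, 2 and 3. The median larval log2 fold change was -1.31 for the members highest in replicate 1 and -1.29 for those highest in replicate 2. This split was made after the values had been seen, on the larval counts that also chose the members. The larval rule without pair 2 kept 17 of the 25 called members (68%) and 39 of the 140 others (27.9%). Without pair 1 it kept 56% and 41.4%, and without pair 3, 76% and 50.7%. The called members were also more abundant in notch3+/+ larvae, with a median of 50.3 CPM, against 25.1 CPM in the others. The part of this in the shares kept was not tested.

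Across the 165 members, Pearson's r between larval and adult log2 fold changes was 0.03 and Spearman's rho 0.06. This is a description over transcripts that share libraries, and the range of the larval values was narrowed by the choice of members. The larval log2 fold changes of the called members ranged from -2.61 to -0.76, and those of the others from -4.80 to -0.46, with a median of -1.30 in both.

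**Figure D5:**
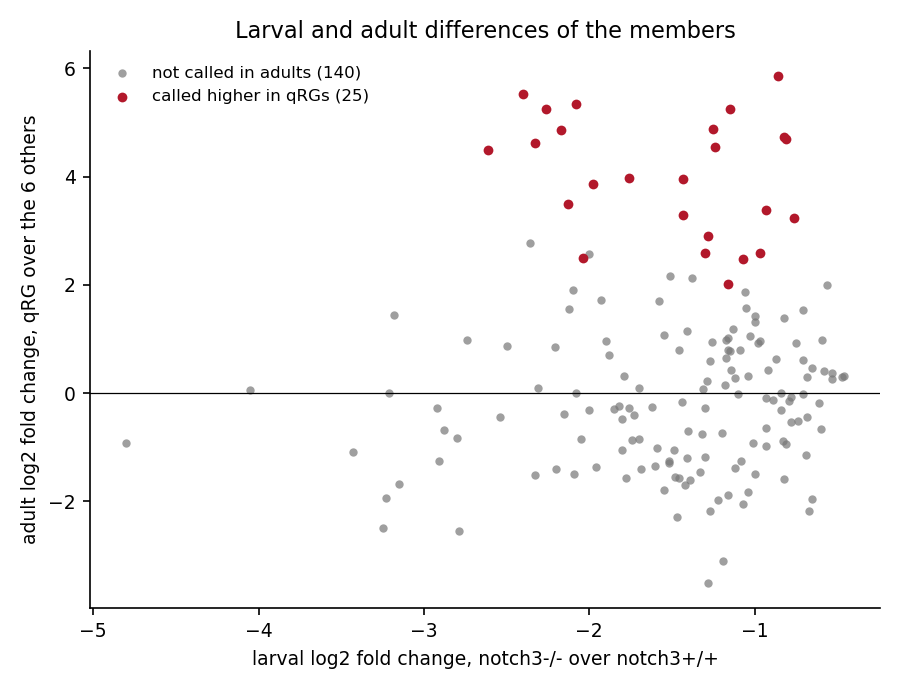
Adult log2 fold change (qRG over the 6 activated libraries) against larval log2 fold change (notch3-/- over notch3+/+) for the 165 members, with those called higher in qRGs in red. The called members span larval log2 fold changes of -2.61 to -0.76, within the range of -4.80 to -0.46 over all members.

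The 69 transcripts that the same rule found higher in notch3-/- larvae, also without chromosome 3, give the nearest comparison (82 with chromosome 3, or 0.467%). edgeR called 7 of them (10.1%) higher in adult qRGs and 0 lower, and their median adult log2 fold change was 0.66, against 25 (15.2%), 0 and 0.05 for the members. At an unadjusted p under 0.05, 24 were higher and 3 lower, and DESeq2 called 9 higher and 0 lower. All 3 qRG libraries lay above all others for 16 of the 69 (23.2%), against 38 of the 165 members (23%). The 69 transcripts had a median adult log2 CPM of 4.44, against 3.29 for the members. In the highest tercile of adult level, 6 of 40 (15%) were called, against 19 of 71 members (26.8%) and 1.04% of all transcripts. Without the libraries that stood apart, 6 of 66 were called higher and 1 lower, with a median of 0.75. The difference between the lists was not tested. The lists share the larval libraries of their choice. Of the 33 lower transcripts on chromosome 3, 2 (6.06%) were called higher in qRGs and 0 lower, with 4 and 1 at an unadjusted p under 0.05 and 4 and 0 called by DESeq2.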

How the data were processed

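The authors aligned paired reads (100 bp in larvae, 50 bp in adults, from libraries primed with oligo(dT)) to Zv9 with TopHat2, kept unique alignments and deposited raw counts per transcript of Ensembl models. The headers of the tables name featureCounts, without options for pairs or strand, where the methods name HTSeq. Both tables were used in full, with 0 columns of other samples. Larval counts were fitted with DESeq2 1.42.0, with replicate number and genotype in the model. The larval numbers pair the samples: deviations from the genotype means correlated at 0.23, 0.26 and 0.32 between same-numbered libraries. Adult counts were fitted with edgeR 4.0.16 (filterByExpr, TMM, quasi-likelihood, no block), qRGs against the 6 other libraries, with Benjamini-Hochberg adjustment over all tested transcripts. Standard errors follow from edgeR's log2 fold changes and F statistics. CPM were scaled by TMM, and log2 CPM used a prior count of 2. Both fits were also run on counts simulated from the fitted models, with no outcome reported here. Transcripts were named by this rule: in each direction, the 2 largest adult log2 fold changes of members that passed the test, averaged a log2 CPM of 1 or more and showed separate groups. Others are marked in the text as chosen later. The planned marker lists and gene names could not be used, as identifiers had no names. The members and lists were chosen with earlier results of these data known. The adult libraries of a group are separate pools of fish, and the larval ones separate batches of heads. Other tools, filters, scalings, member rules and fits without each library were tried.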

Additional observations from a re-analysis of the deposited data

How the results depend on the processing

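The 25 calls of members as higher in qRGs became 29 with DESeq2, 25 with DESeq2's size factors, with a minimum of 10 counts and with no filter, 21 at an adjusted p under 0.01, and 19 to 26 when each adult library was left out (fewest without qRG replicate 3). The calls over all transcripts moved as well, from 153 in the main fit to 320 with DESeq2 and 79 at an adjusted p under 0.01. They were 149 to 155 with the other scaling and filters. Leaving out each adult library gave 70 to 245, with 70 without qRG replicate 3 and 245 without activatedNPC replicate 1. All 25 members were shared with DESeq2 and with each alternative scaling or filter. Against the activatedNPC columns alone, 42 members were called higher and 4 lower (median log2 fold change 0.40), with 3.42% and 1.77% of all transcripts. Against the proliferative columns alone, 29 members were called higher and 6 lower (-0.02), with 1.59% and 1.13% of all transcripts. The 0 members called lower by edgeR became 1 with DESeq2, 2 without the 3 libraries that stood apart (median 0.82) and 43 with these alone (54 higher, median -0.03). The share of all transcripts called lower moved as well, from 0.00359% to 0.551%, 1.3% and 22.6% in the same order. With those libraries alone, 18.9% of all transcripts were called higher. The median of 0.05 moved to 0.01 without members of overlapping exons, and to between -0.07 and 0.13 without each adult library. Whether adult replicate numbers pair the samples was not settled by the data: correlations of same-numbered libraries ran from -0.50 to 0.71. Between qRG and activatedNPC columns they were 0.19, 0.09 and 0.19, against -0.16 to 0.03 for different numbers. Between qRG and proliferative columns they were -0.15, 0.02 and 0.21, against -0.20 to 0.18. Same-numbered libraries may share a pool of fish, and the main fit treated all libraries as independent. With the replicate block, 26 members were called higher and 0 lower, with a median of 0.25. Over all transcripts, 156 were called higher and 1 lower, with a median of -0.11.

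The choice of members depended more on the method. The rule chose 39 transcripts without the replicate block, 68 by edgeR with it, 113 at an adjusted p under 0.01, 162 with DESeq2's default filter, and 70 to 120 without each replicate pair. The 68 members chosen by edgeR gave 16 calls (median 0.84), against 25 of 165 by the main rule. Those chosen without larval pairs 1, 2 and 3 gave 14 calls of 94, 17 of 70 and 19 of 120 (medians -0.15 to 0.72). Each of these lists was shorter than the main one and gave fewer calls, but the number of calls did not follow the length. The lists of 68 and 70 members had medians of 0.84 and 0.72, against 0.05 by the main rule. ENSDART00000001253 and ENSDART00000051533 kept their call and direction in all 18 alternatives of the adult fit. Against the activatedNPC columns alone, the log2 fold changes of ENSDART00000142400 and ENSDART00000156124 turned to 0.14 and 0.96, and both passed the test as lower against the proliferative columns alone (-4.47 and -4.08) and against the 3 libraries that stood apart alone (-4.27 and -2.74). The alternatives by column name, the libraries that stood apart, the default filter and the adult counts of members chosen without a larval pair were added after seeing the data. The causes were not tested. With 3 qRG libraries and a wide spread among the activated ones, small adult differences were not detectable.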
